A study of Mus musculus with 9 samples.

Results

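Endothelial selectins and adhesion molecules are the surface and secreted proteins with which the vessel wall catches passing leukocytes and platelets and holds its own cells together. The set was the 9 genes Sele, Selp, Icam1, Icam2, Vcam1, Pecam1, Vwf, Cdh5 and Esam. A probe set (a group of short array probes read as 1 measurement) was a member when the array annotation gave it to 1 of these symbols. That took in 14 of the 45037 probe sets that are not controls, and 9 of the 18193 genes the annotation names. Total RNA of ear skin was measured on Affymetrix expression arrays in 3 groups of 3 arrays, all from C57BL/6 mice and all 6 h after application. The first group received dinitrofluorobenzene (DNFB, a contact allergen that binds skin proteins) on the right ear. The second received benzalkonium chloride (BAC, a quaternary ammonium detergent used as a skin irritant), also on the right ear. The third received only the vehicle, acetone and olive oil, on the left ear, so the side of the body goes with treatment and the effects of side and of compound cannot be told apart. The labels give no dose, age, sex or number of mice per array. They do not say that the 3 arrays of a group came from separate animals, so p-values measure the spread between arrays, which may be technical.

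Leukocytes leave the blood in steps. E-selectin (Sele) and P-selectin (Selp) bind sugars on leukocytes and let them roll, the immunoglobulin-family proteins ICAM-1, ICAM-2 and VCAM-1 then hold them through leukocyte integrins, and PECAM-1, VE-cadherin (Cdh5) and ESAM line the junctions they pass through. P-selectin and von Willebrand factor (Vwf) are stored in the Weibel-Palade bodies of endothelial cells and in platelets, so their release needs no new RNA, while E-selectin is mainly made on demand from transcripts that inflammatory cytokines induce.

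Values are MAS5 signals, linear intensities that the authors' software had scaled to a common trimmed mean on each array. Median signals lay between 71.2 and 86.3 on the 9 arrays, and signals are compared only within a probe set, never between genes. Changes are differences of mean log2(signal + 16), with the standard error (SE) and the Benjamini-Hochberg adjusted p of limma's moderated test over 14122 genes. A gene passed at an adjusted p under 0.05. All 9 genes passed the filter on low signals. Where a gene had several probe sets, the one with the highest mean represented it. The ratio of 3' to 5' probe signal, a measure of RNA integrity, was higher in BAC than in vehicle skin and varied among DNFB arrays. For Gapdh it was 0.841, 1.36 and 0.943 in DNFB skin, 0.917 to 0.932 in BAC skin and 0.856 to 0.880 in vehicle skin, and for beta-actin it was 1.09, 1.28 and 1.23 in DNFB skin, 1.18 to 1.22 in BAC skin and 1.05 to 1.10 in vehicle skin. All BAC arrays thus lay above all vehicle arrays in both ratios, and DNFB replicate 2 was the highest in both. The part of RNA integrity in the results was not tested. Checked against the tissue label, Krt10, a keratin gene of keratinocytes, read between 18972 and 31242 on all 9 arrays.

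The largest changes were rises of the selectins and Icam1 after BAC. There, Sele, Selp and Icam1 were 7.26-fold, 4.70-fold and 4.13-fold higher than in vehicle skin on the log2(signal + 16) scale, with smaller rises of Vcam1 and Cdh5. After DNFB, Sele was not called changed, while Cdh5, Icam2, Vwf and Icam1 were 1.48-fold to 1.94-fold higher. Set directly against each other, DNFB skin had less Sele, Selp and Icam1 signal and more Vwf signal than BAC skin. In total 4 of the 9 genes rose and 0 fell after DNFB, where 6.76% of all tested genes rose and 7.08% fell. After BAC 5 of 9 rose and 0 fell, where 6.59% of tested genes rose and 7.64% fell. Between DNFB and BAC skin 1 gene was higher and 3 were lower, where 3.14% of tested genes were higher and 3.66% lower. The median log2 change of the 9 genes was 0.57 after DNFB, 0.77 after BAC and -0.04 for DNFB against BAC, while the medians over all tested genes were 0.0022, -0.03 and 0.03. The comparisons of each compound with vehicle share the 3 vehicle arrays.

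**Figure D1:**
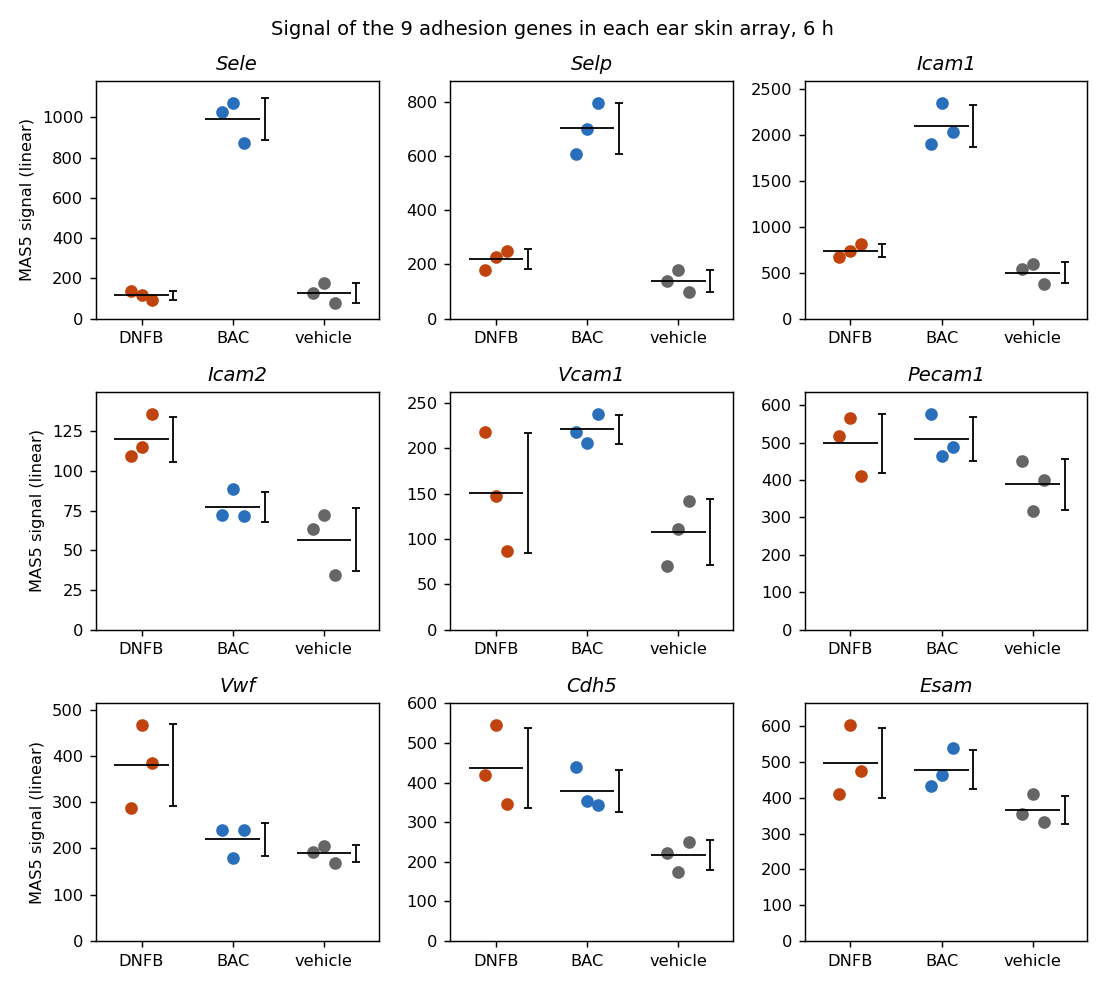
MAS5 signal (linear, 1 vertical scale per gene, starting at 0) of the 9 genes on each array, with DNFB, BAC and vehicle skin from left to right. Points are single arrays, lines are means of 3 arrays and bars are 1 SD; the BAC arrays stand above all others for Sele, Selp and Icam1, and the DNFB arrays do for Icam2 and Vwf.

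Promoters are shown for the members with an entry in the RefSeq promoter table used here (build GRCm38.p6). These were 3 of the 9, Sele, Selp and Icam1, which were also the 3 that rose most after BAC. Each line gives the 250 bases before the annotated start and the first 30 after it, 5' to 3', and capitals mark every match to the motifs named after them. All lie on the plus strand, Sele at chr1:164047984-164048263, Selp at chr1:164115014-164115293 and Icam1 at chr9:21015690-21015969. The start that the table gives for Sele lies inside the span RefSeq gives the gene (chromosome 1, 164039614 to 164058487).
Sele: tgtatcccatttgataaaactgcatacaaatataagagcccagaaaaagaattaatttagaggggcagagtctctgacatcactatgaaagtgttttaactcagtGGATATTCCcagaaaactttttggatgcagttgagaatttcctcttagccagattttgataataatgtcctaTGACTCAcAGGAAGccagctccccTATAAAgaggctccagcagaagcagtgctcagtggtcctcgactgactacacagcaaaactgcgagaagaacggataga
Selp: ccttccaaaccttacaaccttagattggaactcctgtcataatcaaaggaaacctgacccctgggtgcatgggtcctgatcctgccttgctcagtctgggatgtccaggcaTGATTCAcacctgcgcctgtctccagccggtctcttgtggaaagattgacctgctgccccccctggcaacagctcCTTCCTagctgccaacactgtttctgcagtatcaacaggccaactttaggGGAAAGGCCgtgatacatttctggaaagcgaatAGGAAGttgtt
Icam1: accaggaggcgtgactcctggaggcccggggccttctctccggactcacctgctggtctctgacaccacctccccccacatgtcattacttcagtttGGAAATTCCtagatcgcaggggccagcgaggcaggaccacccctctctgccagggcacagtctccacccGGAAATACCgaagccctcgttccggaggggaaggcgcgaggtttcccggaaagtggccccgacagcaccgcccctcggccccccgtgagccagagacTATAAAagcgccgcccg
The search covered both strands of the full window, 250 bases before to 50 after the start. The NF-kB consensus, the site of the transcription factor family that inflammatory signals switch on, had 0 matches in the 3 promoters and was present in 4.51% of the 32851 promoters of that length. A shortened core, GGNNNTTCC, which was searched only after that count was seen and can overlap the full consensus, matched 1 place in Sele (145 to 137 bases before the start), 1 in Selp (14 to 6 before, minus strand) and 2 in Icam1 (153 to 145 before on both strands, and 84 to 76 before on the minus strand). That core was present in 18.5% of all promoters. The AP-1 site TGANTCA matched Sele 73 to 67 bases before the start and Selp 139 to 133 before it, did not match Icam1, and was present in 7.81% of promoters. The ETS core AGGAAG, the motif of a factor family with endothelial members, matched Sele 65 to 60 bases before the start. In Selp it matched 64 to 59 before the start on the minus strand and again at bases 20 to 25 of the transcript, and 35.4% of promoters held it. TATAAA matched Sele 49 to 44 bases before the start and Icam1 at bases 14 to 19 of the transcript, and 13.6% of promoters held it. No match overlapped a match to another of these motifs. A match describes letters in this window and shows no binding.

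E-selectin and P-selectin catch leukocytes first. Sele signals were 139, 116 and 93.2 in DNFB skin, 1025, 1073 and 872 in BAC skin, and 128, 177 and 78.5 in vehicle skin. The 3 BAC arrays stood far above the other 6, and the DNFB values all lay inside the vehicle range. The log2 change was 2.86 ± 0.23 (SE) after BAC (adjusted p = 4.82e-07), and by unadjusted p Sele ranked 56 of 14122 genes. After DNFB it was -0.08 ± 0.23 (adjusted p = 0.876), with a 95% interval from -0.56 to 0.41, which holds no rise as large as that after BAC. Directly, Sele was lower in DNFB than in BAC skin by a log2 difference of -2.94 ± 0.23 (adjusted p = 1.27e-06), and only 3 of the 14122 tested genes had a more negative difference.

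Selp was read by 3 probe sets. The representing one gave 178, 229 and 249 in DNFB skin, 608, 701 and 797 in BAC skin, and 139, 181 and 98.9 in vehicle skin. All BAC values exceeded all others, and 1 DNFB value, 178, fell within the vehicle range. Selp rose after BAC by 2.23 ± 0.20 on the log2 scale (adjusted p = 1.79e-06). After DNFB the change was 0.62 ± 0.20 and did not pass (adjusted p = 0.0519). That call sat near the threshold. It passed without DNFB replicate 1 (0.75, adjusted p = 0.0351), without vehicle replicate 2 (0.80, adjusted p = 0.0148), after quantile normalization (0.69, adjusted p = 0.0448) and with a stricter filter (adjusted p = 0.0431). It lay further from the threshold when the probe sets of each gene were averaged (0.31, adjusted p = 0.353), with the endothelial marker mean described further on subtracted (0.34, adjusted p = 0.241) and without vehicle replicate 3 (0.42, adjusted p = 0.222). Between the compounds the difference was -1.62 ± 0.20, lower in DNFB skin (adjusted p = 0.000112). The second probe set, 1449906_at, read 99.9, 76.1 and 47.7 in DNFB skin, 235, 248 and 346 in BAC skin, and 66.2, 48.3 and 50.7 in vehicle skin. The third, 1440173_x_at, whose suffix marks probes that can bind other transcripts, read 5.67, 11.4 and 29.6 in DNFB skin, 209, 219 and 201 in BAC skin, and 30.1, 1.81 and 17.7 in vehicle skin. It was above the 40th percentile of its array only in the 3 BAC arrays and entered the fit through them alone, so these signals are given as a description with no change. In a fit over single probe sets, 1420558_at, the representing one, and 1449906_at rose after BAC by 2.23 and 2.03, and were lower in DNFB than in BAC skin by log2 differences of -1.62 and -1.71. After DNFB 1449906_at changed by 0.32 and did not pass (adjusted p = 0.526).

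**Figure D2:**
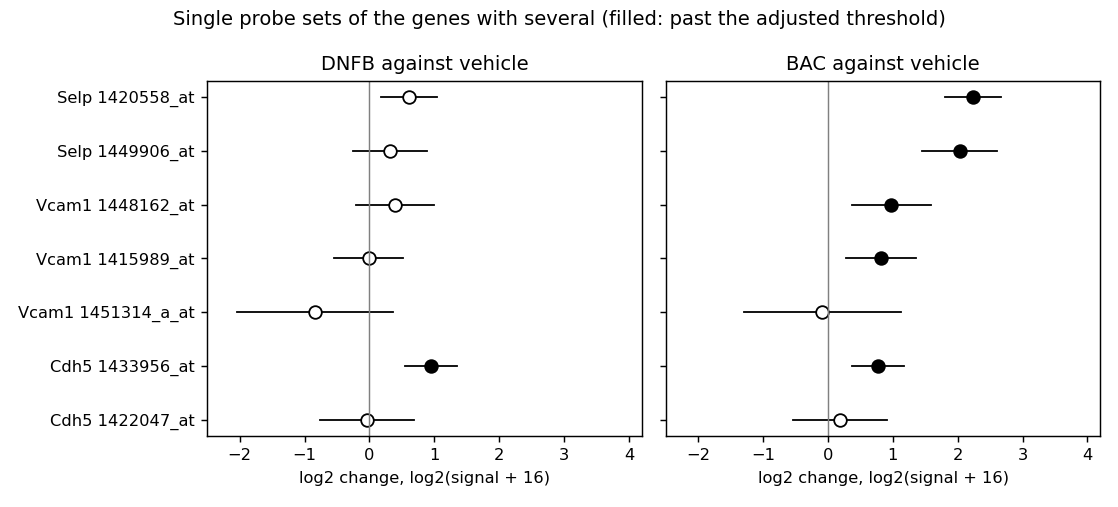
log2 change of each probe set of Selp, Vcam1 and Cdh5 (horizontal axis, log2(signal + 16) units) after DNFB on the left and after BAC on the right, against vehicle, with 95% intervals and filled points for those that passed. Selp 1440173_x_at is not drawn, since it was above the 40th percentile in BAC arrays alone; Selp 1420558_at (2.23) and 1449906_at (2.03) are both filled after BAC, whereas probe set 1451314_a_at of Vcam1 (-0.09) and 1422047_at of Cdh5 (0.19) lie near 0.

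ICAM-1 is the vessel-wall ligand of the beta2 integrins and is also made by keratinocytes and leukocytes. Icam1 (chromosome 9, 21015940 to 21028814, GRCm38.p6) read 674, 737 and 816 in DNFB skin, 1905, 2354 and 2038 in BAC skin, and 539, 592 and 376 in vehicle skin. The groups did not overlap, with BAC arrays highest and DNFB arrays between. Its log2 change was 2.05 ± 0.15 after BAC (adjusted p = 2.84e-07) and 0.57 ± 0.15 after DNFB (adjusted p = 0.0214). The difference of DNFB from BAC was -1.48 ± 0.15 (adjusted p = 2.43e-05). The call after DNFB was lost without vehicle replicate 3, the lowest array (0.38, adjusted p = 0.104), without DNFB replicate 2 (adjusted p = 0.0558) or without DNFB replicate 3 (adjusted p = 0.0832). It was also lost with array median centring (adjusted p = 0.0737) and without the intensity trend (adjusted p = 0.0914). Of the alternatives and left-out arrays tried, none ended a call of Sele, Selp or Icam1 after BAC or between DNFB and BAC.

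VCAM-1 binds the alpha4 integrins of monocytes, eosinophils and lymphocytes. The representing Vcam1 probe set read 218, 148 and 86.8 in DNFB skin, 219, 206 and 238 in BAC skin, and 70.5, 111 and 142 in vehicle skin. BAC and vehicle arrays did not overlap, while DNFB arrays spread across both. Vcam1 rose after BAC by 0.98 ± 0.28 (adjusted p = 0.0311), and its change after DNFB was 0.39 ± 0.28 (adjusted p = 0.422, 95% interval -0.21 to 0.995). The difference of DNFB from BAC was -0.58 ± 0.28 and did not pass (adjusted p = 0.249). The BAC call did not hold without vehicle replicate 1 (0.74, adjusted p = 0.143), without vehicle replicate 2 (adjusted p = 0.0567) or without any 1 of the BAC arrays (adjusted p from 0.0659 to 0.0958). Nor did it hold without the filter (adjusted p = 0.0626), without the intensity trend (adjusted p = 0.0833) or when its 3 probe sets were averaged (0.57, adjusted p = 0.117). Probe set 1415989_at also rose, by 0.81 (adjusted p = 0.0490), whereas 1451314_a_at changed by -0.09 ± 0.56 and was above the 40th percentile in only 5 of 9 arrays.

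ICAM-2 is carried by resting endothelium, platelets and leukocytes. Icam2 read 109, 115 and 136 in DNFB skin, 72.3, 88.3 and 71.3 in BAC skin, and 63.6, 72.2 and 34.2 in vehicle skin. The DNFB arrays were the highest 3 of the 9, and BAC and vehicle arrays overlapped. It rose after DNFB by 0.94 ± 0.29 (adjusted p = 0.0409), and its change after BAC was 0.40 ± 0.29 (adjusted p = 0.404). The difference of DNFB from BAC, 0.54 ± 0.29, did not pass (adjusted p = 0.299), so the compounds were not shown to differ for this gene. The rise rested on a dim probe set, which in vehicle replicate 3 lay under the 40th percentile of its array. The call was lost without vehicle replicate 3 (0.69, adjusted p = 0.164), without vehicle replicate 1 (adjusted p = 0.0764) and without any 1 of the DNFB arrays (adjusted p from 0.0667 to 0.130). It was lost too with no filter, with quantile normalization or median centring, and with only the 2 groups in the fit (adjusted p from 0.0519 to 0.0675).

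Among the junction proteins, VE-cadherin joins endothelial cells to each other. The representing Cdh5 probe set read 418, 546 and 345 in DNFB skin, 439, 353 and 344 in BAC skin, and 223, 175 and 250 in vehicle skin. All 6 treated arrays exceeded all 3 vehicle arrays, and DNFB and BAC arrays overlapped. Cdh5 was higher after DNFB by 0.95 ± 0.18 (adjusted p = 0.00238) and after BAC by 0.77 ± 0.18 (adjusted p = 0.0102). The difference of DNFB from BAC was 0.18 ± 0.18, with a 95% interval from -0.21 to 0.57. Both calls held without any 1 array. The second probe set, 1422047_at, read 67.0, 44.4 and 69.9 in DNFB skin, 86.9, 54.8 and 80.1 in BAC skin, and 62.4, 39.6 and 92.1 in vehicle skin, with no separation between groups. With the mean of both probe sets the changes were 0.45 after DNFB (adjusted p = 0.184) and 0.48 after BAC (adjusted p = 0.152), so the calls rest on the brighter probe set.

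PECAM-1, a junction protein that leukocytes bind while crossing the vessel wall and that platelets also carry, was not called changed. Pecam1 read 519, 564 and 411 in DNFB skin, 577, 465 and 487 in BAC skin, and 451, 316 and 400 in vehicle skin. BAC arrays lay above vehicle arrays, and DNFB arrays overlapped both. The log2 change was 0.35 ± 0.16 after DNFB (adjusted p = 0.185) and 0.39 ± 0.16 after BAC (adjusted p = 0.129). Between DNFB and BAC it was -0.04 ± 0.16, with a 95% interval from -0.38 to 0.30.

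Esam, whose protein sits at endothelial tight junctions and on platelets, read 412, 604 and 474 in DNFB skin, 433, 465 and 539 in BAC skin, and 356, 410 and 332 in vehicle skin. All treated arrays lay above all vehicle arrays, DNFB replicate 1 only just. The log2 change was 0.41 ± 0.16 after DNFB (adjusted p = 0.0982) and 0.37 ± 0.16 after BAC (adjusted p = 0.129), and neither passed. Without DNFB replicate 1 the first passed (0.53, adjusted p = 0.0468). Between the compounds the difference was 0.04 ± 0.16.

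Von Willebrand factor tethers platelets to the injured vessel wall. Vwf read 288, 467 and 386 in DNFB skin, 239, 178 and 240 in BAC skin, and 193, 206 and 169 in vehicle skin. The 3 DNFB arrays were the highest, and BAC and vehicle arrays overlapped. Vwf rose after DNFB by 0.93 ± 0.19 (adjusted p = 0.00365), and its change after BAC was 0.19 ± 0.19 (adjusted p = 0.561). The DNFB signal was also higher than the BAC signal, by 0.74 ± 0.19 (adjusted p = 0.0287). That difference did not hold without DNFB replicate 2 (0.58, adjusted p = 0.124), DNFB replicate 3 (adjusted p = 0.0914) or BAC replicate 2 (0.61, adjusted p = 0.126), nor without the filter (adjusted p = 0.0519) or the intensity trend (adjusted p = 0.0849). DNFB replicate 2, the array with the raised Gapdh ratio, held the highest signal of the 9 arrays for Vwf, Cdh5 and Esam and the highest in its group for Pecam1. Without it the rises after DNFB were 0.77 for Vwf (adjusted p = 0.0247) and 0.78 for Cdh5 (adjusted p = 0.0155).

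**Figure D3:**
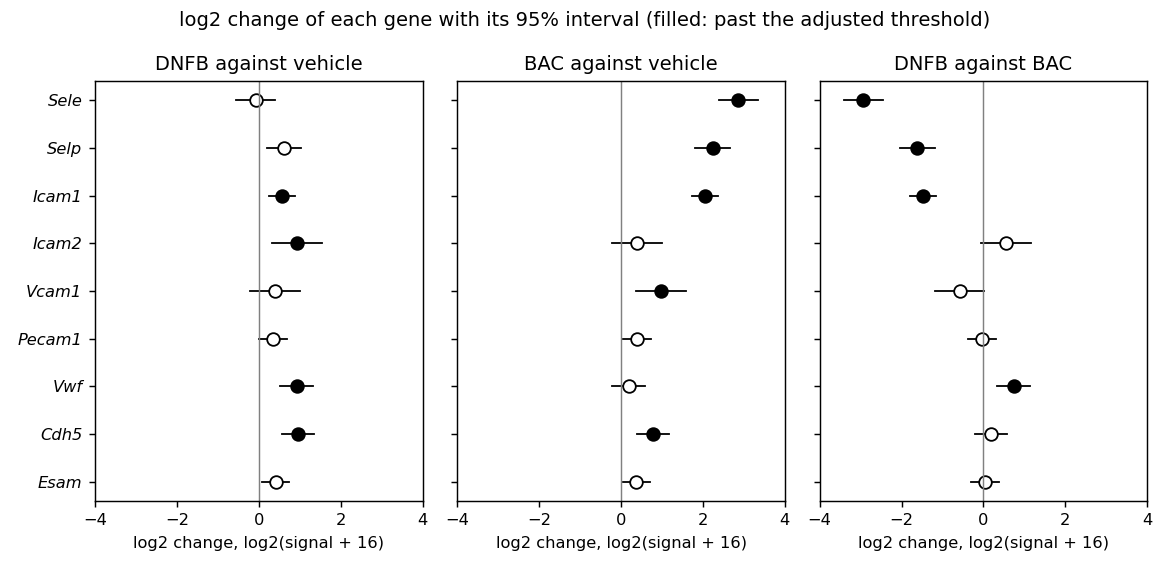
log2 change of each gene (horizontal axis, log2(signal + 16) units) with its 95% interval, for DNFB against vehicle, BAC against vehicle and DNFB against BAC from left to right. Filled points passed the adjusted threshold: Sele, Selp and Icam1 stand far to the right after BAC (2.05 to 2.86) and far to the left between DNFB and BAC (-2.94 to -1.48), where Vwf alone is filled on the right (0.74).

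Read by overlap alone, arrays of DNFB skin lay above all vehicle arrays for 5 of the 9 genes and below for 0, where 15.2% of tested genes lay above and 15.6% below. BAC arrays lay above all vehicle arrays for 7 genes and below for 0, where 14.9% of tested genes lay above and 19.2% below. DNFB arrays lay above all BAC arrays for 2 genes (Icam2 and Vwf), against 13.7% of tested genes, and below them for 3, against 11.4%. With 3 arrays against 3, an exact two-sided permutation test of a single gene cannot go below 0.1.

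In whole skin, more endothelial cells and more RNA per endothelial cell cannot be told apart. The 22 endothelial identity markers, genes such as Kdr, Tek and Tie1 that vessel cells carry at rest, all passed the filter. After DNFB 3 of them rose and 0 fell (median log2 change 0.34), and after BAC 5 rose and 0 fell (median 0.10). Nos3, the endothelial nitric oxide synthase, rose by 1.34 ± 0.13 after DNFB (adjusted p = 5.12e-06) and by 1.26 ± 0.13 after BAC (adjusted p = 7.61e-06). Rasip1, needed for vessel lumens to form, rose by 0.99 ± 0.18 (adjusted p = 0.00169) and 1.28 ± 0.18 (adjusted p = 0.000187) after DNFB and BAC. Summed signals of the list ran from 7978 to 9481 in DNFB skin, 8279 to 9616 in BAC skin and 7321 to 8471 in vehicle skin. The array means of their log2 values were 8.21, 8.52 and 8.40 in DNFB skin, 8.43, 8.24 and 8.37 in BAC skin, and 8.19, 8.09 and 8.03 in vehicle skin. Every treated array thus stood above every vehicle array, DNFB replicate 1 by the least.

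With that array mean subtracted, members were read relative to the average of the 22 markers. The median change of all tested genes then moved to -0.27 after DNFB and -0.28 after BAC. The average includes Nos3 and Rasip1, which rose, while after BAC 17 of the 22 markers did not pass and their median change was 0.10. A call lost under this subtraction is therefore no measure of vessel content. Sele, Selp and Icam1 still rose after BAC, by 2.62, 1.99 and 1.80, and were still lower in DNFB than in BAC skin, by log2 differences of -2.96, -1.64 and -1.51. Vwf and Cdh5 still rose after DNFB, by 0.65 (adjusted p = 0.0138) and 0.68 (adjusted p = 0.0157), and Cdh5 after BAC by 0.53 (adjusted p = 0.0466). Calls were lost for Icam1 (0.30, adjusted p = 0.212) and Icam2 (0.67, adjusted p = 0.136) after DNFB and for Vcam1 after BAC (0.73, adjusted p = 0.0949).

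Selectins and ICAMs bind partners on leukocytes. Of 16 tested selectin ligands and enzymes that glycosylate them, 2 rose after DNFB and 6 after BAC, with 0 falling in either (medians 0.22 and 0.15). Selplg, the PSGL-1 that P-selectin binds, read 224, 352 and 402 in DNFB skin, 649, 613 and 594 in BAC skin, and 239, 274 and 312 in vehicle skin. It rose after BAC by 1.13 ± 0.18 (adjusted p = 0.000648), and the DNFB value was lower than the BAC value by a log2 difference of -0.93 ± 0.18 (adjusted p = 0.00628). Podxl, a mucin of endothelium, rose by 0.68 after DNFB (adjusted p = 0.00498) and by 0.96 after BAC (adjusted p = 0.000303). Tpst1, which adds sulfate to tyrosines, rose by 0.42 after DNFB (adjusted p = 0.0436).

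Of 10 leukocyte integrins and their activators, 4 rose after DNFB and 7 after BAC, with 0 falling (medians 0.44 and 0.73). Itgal, the alpha chain of the ICAM-binding integrin LFA-1, rose by 1.08 ± 0.21 after DNFB (adjusted p = 0.00267) and by 1.73 ± 0.21 after BAC (adjusted p = 4.35e-05). Its beta chain Itgb2 read 654, 596 and 650 in DNFB skin, 1002, 1061 and 1026 in BAC skin, and 339, 377 and 304 in vehicle skin. No group overlapped another, and the DNFB value was lower than the BAC value by a log2 difference of -0.69 ± 0.12 (adjusted p = 0.00244). Itgam, the alpha chain of Mac-1, read 57.5, 82.6 and 36.6 in DNFB skin, 158, 149 and 127 in BAC skin, and 2.10, 45.3 and 43.3 in vehicle skin. Itgam is among the 7 called after BAC. It was above the 40th percentile of its array in 3 BAC arrays, 1 DNFB array and 0 vehicle arrays. It thus met the filter only through the BAC arrays. Its signals are therefore given as a description, with no change, and its call is not used as support.

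Leukocyte markers moved alongside. Of 10 neutrophil markers 7 rose after DNFB and 8 after BAC, with 0 falling (medians 1.60 and 2.34). Summed neutrophil marker signal ran from 11578 to 21442 in DNFB skin, 20383 to 29460 in BAC skin and 1534 to 6005 in vehicle skin, and Camp was below the 40th percentile in every array. S100a8 and S100a9, subunits of calprotectin that stressed keratinocytes also make, carried 53.2% to 86.6% of that sum on the 9 arrays. Without them the sums were 2236, 1914 and 3007 in DNFB skin, 3545, 3399 and 4208 in BAC skin, and 598, 807 and 718 in vehicle skin, and the 3 groups did not overlap. S100a8 read 4505, 5827 and 9429 in DNFB skin, 10349, 8444 and 12036 in BAC skin, and 487, 2565 and 464 in vehicle skin, where replicate 2 stood apart, as it did for S100a9. The log2 changes of S100a8 and S100a9 were 2.88 and 3.03 after DNFB and 3.58 and 3.74 after BAC. Without vehicle replicate 2 they were 3.68 and 3.92 after DNFB and 4.37 and 4.63 after BAC, and they passed either way. Of 9 monocyte and macrophage markers 4 rose after each compound, and their sums ran from 13676 to 15172 in DNFB skin, 16053 to 16878 in BAC skin and 10767 to 12505 in vehicle skin. Cd14, a receptor for bacterial lipopolysaccharide on monocytes, rose by 0.79 after DNFB (adjusted p = 0.00544) and 1.58 after BAC (adjusted p = 1.35e-05). The lysosomal protein gene Cd68 rose by 0.58 after DNFB (adjusted p = 0.00666), and Ccr2, the receptor with which monocytes enter tissue, by 1.14 after BAC (adjusted p = 0.00319). Ptprc, the CD45 of all leukocytes, rose by 0.62 after DNFB (adjusted p = 0.00407) and 1.39 after BAC (adjusted p = 2.75e-06). In its list of 5 T cell and pan-leukocyte markers, 1 rose and 1 fell after DNFB and 1 rose after BAC, with Cd4 below the 40th percentile in every array. The one that fell was Cd3e, which encodes a CD3 chain of the T cell receptor complex. Cd3e was above that percentile in 0 DNFB arrays, 1 BAC array and 3 vehicle arrays. It thus met the filter only through the vehicle arrays, and its call is not used as support. It read 42.4, 16.8 and 17.2 in DNFB skin, all under that percentile, and 127, 47.4 and 140 in vehicle skin. Several of these cells carry Icam1, Icam2 or Pecam1 themselves, and their part in the members' values was not tested.

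The tests also covered 11 genes of cytokines and receptors that activate endothelium. After DNFB 3 rose and 2 fell, and after BAC 4 rose and 0 fell (medians 0.02 and 0.43). Il1b rose by 2.51 ± 0.18 after DNFB (adjusted p = 2.36e-07) and by 4.16 ± 0.18 after BAC (adjusted p = 7.89e-10), and Tnfrsf1b, a TNF receptor, by 0.86 (adjusted p = 0.00558) and 1.12 (adjusted p = 0.000766) after DNFB and BAC. Il1a fell after DNFB (-1.40 ± 0.40, adjusted p = 0.0310).

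Of 8 NF-kB subunits and inhibitors 2 rose and 2 fell after DNFB, and 8 rose after BAC (medians 0.08 and 0.92). Rel, a subunit, read 160, 118 and 134 in DNFB skin, 425, 620 and 637 in BAC skin, and 88.9, 129 and 76.5 in vehicle skin, so the BAC arrays stood above all others. It rose by 2.34 ± 0.21 after BAC (adjusted p = 2.29e-06). Tnfaip3, the inhibitor A20, fell after DNFB (-1.05 ± 0.16, adjusted p = 0.000416) and rose after BAC by 2.34 ± 0.16 (adjusted p = 1.32e-07). Nfkbia, the inhibitor IkB-alpha, fell after DNFB (-0.63 ± 0.10, adjusted p = 0.000543) and rose after BAC by 0.82 (adjusted p = 4.64e-05). Between DNFB and BAC 6 of the 8 were lower in DNFB skin.

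Of 9 tested genes for the contents and release of Weibel-Palade bodies, 3 rose and 2 fell after DNFB, and 2 rose and 2 fell after BAC (medians 0.18 and -0.05). Angpt2, a stored ligand that loosens vessels, read 210, 206 and 189 in DNFB skin, 390, 369 and 335 in BAC skin, and 128, 94.6 and 104 in vehicle skin. The 3 groups did not overlap, and Angpt2 was lower in DNFB than in BAC skin (-0.80 ± 0.17, adjusted p = 0.00868), the opposite direction to Vwf. The small GTPase genes Rab27a (-1.29, adjusted p = 0.000462) and Rab3d (-0.98, adjusted p = 0.000515) fell after DNFB. Both also fell after BAC, with log2 changes of -0.79 for Rab27a (adjusted p = 0.0165) and -0.68 for Rab3d (adjusted p = 0.00809), and both genes act in the secretory cells of other tissues too.

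Platelets carry Selp, Vwf, Pecam1 and Esam, and of 9 platelet and megakaryocyte markers 2 rose and 1 fell after DNFB, and 0 rose and 1 fell after BAC. Their sums ran from 5691 to 6140 in DNFB skin, 4656 to 5178 in BAC skin and 4991 to 5248 in vehicle skin, so DNFB arrays were highest. Pf4, a platelet chemokine, made up 75.4% to 81.2% of the sum on the 9 arrays and was not called changed (0.18, adjusted p = 0.220 after DNFB; -0.11, adjusted p = 0.490 after BAC). Without Pf4 the sums were 1167, 1301 and 1213 in DNFB skin and 1107, 1276 and 1012 in BAC skin. In vehicle skin they were 1048, 974 and 1109. DNFB and BAC arrays then overlapped, while in the full sum they did not. The markers moved in both directions. Gp1bb, a chain of the platelet receptor for von Willebrand factor, read 159, 195 and 259 in DNFB skin, 226, 176 and 210 in BAC skin, and 350, 351 and 301 in vehicle skin. It fell after DNFB (-0.69, adjusted p = 0.0195) and after BAC (-0.67, adjusted p = 0.0227). Ppbp, another platelet chemokine, read 157, 235 and 144 in DNFB skin, 83.2, 106 and 46.3 in BAC skin, and 37.1, 34.2 and 33.3 in vehicle skin. Ppbp is 1 of the 2 called higher after DNFB, but it was above the 40th percentile in 3 DNFB arrays, 2 BAC arrays and 0 vehicle arrays. Without the DNFB arrays it would not have met the filter. Its signals are therefore given as a description, with no change, and its call is not used as support. Itgb3, an integrin chain that endothelium also carries, rose by 0.82 after DNFB (adjusted p = 0.0444). Gp9 was below the 40th percentile in every array, while Itga2b and Gp5 of the same list were above it in every array. The part of platelets in the Vwf values was not tested.

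Of 19 tested junction and other endothelial adhesion genes, 1 rose and 3 fell after DNFB, and 1 rose and 1 fell after BAC (medians 0.01 and 0.12). Pvr, a nectin-like receptor found in many cell types, rose by 1.24 after DNFB (adjusted p = 0.000859) and 1.53 after BAC (adjusted p = 0.000132). Ocln, a tight junction protein also of the epidermis, fell after DNFB (-1.03, adjusted p = 0.000259), and Alcam fell after BAC (-0.92, adjusted p = 0.00758). Of 7 proteases and inhibitors that shed or cleave adhesion proteins, 3 rose after DNFB and 2 after BAC, with Mmp9 at 0.64 (adjusted p = 0.0296) and 1.15 (adjusted p = 0.000557) and Timp3 at 0.47 (adjusted p = 0.0173) and 0.41 (adjusted p = 0.0372) after DNFB and BAC.

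Of 9 endothelial transcription factors, 2 rose and 0 fell after DNFB, and 2 rose and 1 fell after BAC. Ets1 rose by 0.85 after DNFB (adjusted p = 0.000446) and 0.91 after BAC (adjusted p = 0.000230). Klf2, a factor that flow maintains and that restrains adhesion genes, rose after DNFB by 0.85 (adjusted p = 0.00482), and was higher in DNFB than in BAC skin by 0.67 (adjusted p = 0.0349). Nr2f2, the venous identity factor, fell after BAC (-1.09, adjusted p = 0.0183).

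Other cell types were read from markers too. Of 5 lymphatic endothelial markers 2 rose after DNFB and 1 after BAC. Pdpn, which keratinocytes and fibroblasts share, rose by 1.13 (adjusted p = 8.06e-06) and 1.06 (adjusted p = 1.38e-05) after DNFB and BAC, and Reln rose by 0.44 after DNFB (adjusted p = 0.0412). Of 9 pericyte and smooth muscle markers 4 rose after DNFB and 3 after BAC, with Tagln at 0.57 (adjusted p = 0.00464) and 0.65 (adjusted p = 0.00182) after DNFB and BAC. Smooth muscle actin (Acta2) rose by 0.65 after BAC (adjusted p = 0.000869), and smooth muscle myosin (Myh11), whose probe set was above the 40th percentile in only 1 vehicle array, passed as higher after DNFB (adjusted p = 0.0407). Of 9 fibroblast markers 3 rose after DNFB and 1 after BAC, with Mfap5 at 0.77 (adjusted p = 0.000196) and 0.37 (adjusted p = 0.0340), and Lum, a collagen-binding proteoglycan, rose by 0.39 after DNFB (adjusted p = 0.0282). Of 8 keratinocyte markers 5 fell after DNFB and 3 after BAC, with Krt1 at -0.92 (adjusted p = 8.81e-05) and -0.66 (adjusted p = 0.00154) after DNFB and BAC. Trp63, the basal-layer transcription factor p63, fell after DNFB (-1.10, adjusted p = 7.14e-06), and the basal keratin gene Krt15 fell after BAC (-0.81, adjusted p = 0.00306). Of 10 skeletal muscle markers 6 rose after DNFB, such as Atp2a1 by 0.79 (adjusted p = 0.0116) and Tnnt3 by 0.63 (adjusted p = 0.0366). After BAC 0 passed, limma gave 3 an unadjusted p under 0.05, and the smallest p belonged to Acta1 (0.35, adjusted p = 0.0728), which passed without BAC replicate 1. Marker sums of muscle ran from 47688 to 60445 in DNFB skin, 38160 to 59229 in BAC skin and 33855 to 44434 in vehicle skin. The part of tissue make-up in the members' values was not tested. Among the genes named outside the set, leaving out a single array could end the calls after DNFB of Tpst1, Il1a, Cd3e, Itgb3, Mmp9, Timp3, Atp2a1, Lum, Reln, Myh11 and Tnnt3, and those after BAC of Timp3, Mfap5, Nr2f2, Rab27a and Gp1bb. The calls of Podxl and Ptprc after both compounds, Itgal after DNFB, and Alcam, Acta2 and Gp1bb after BAC were lost when the probe sets of each gene were averaged. With the endothelial mean subtracted, Tagln and Cd68 after DNFB lost their calls, as did Klf2 after DNFB without the intensity trend. These checks covered a gene outside the set only in the comparison with vehicle for which it was named. Its other values were not checked, such as Gp1bb after DNFB, Rab3d after BAC, and Klf2, Angpt2, Selplg and Itgb2 between the compounds.

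**Figure D4:**
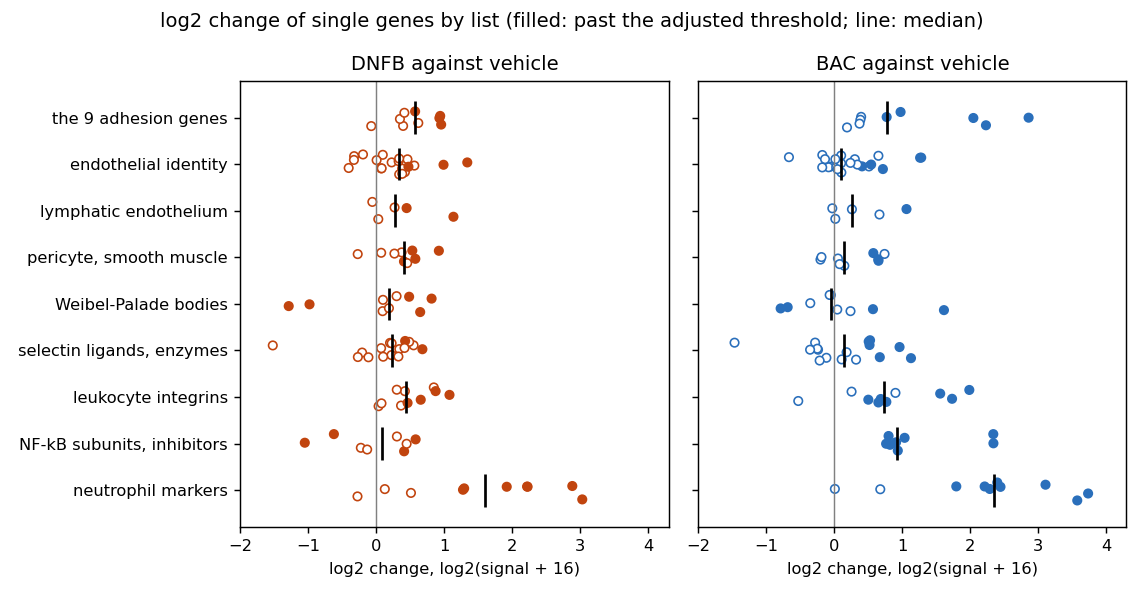
log2 change (horizontal axis, log2(signal + 16) units) of the single tested genes of 9 lists, 1 row per list, after DNFB on the left and after BAC on the right, against vehicle; filled points passed the adjusted threshold and vertical lines are list medians. The NF-kB row is filled throughout after BAC and lies on both sides of 0 after DNFB.

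The genes whose 9-array profiles were most like those of the inducible members were found by the root mean square (RMS) difference of log2 values, each profile set to its own vehicle mean. Nearest to Sele were Arc (RMS 0.48), Rel (0.49) and the eosinophil chemokine gene Ccl11 (0.50). Arc, an immediate early gene, averaged a signal of 181 in DNFB skin, 1026 in BAC skin and 202 in vehicle skin, so like Sele it stood apart in BAC skin. Nearest to Selp were Rel (0.25), Ier3 (0.29) and Lcn2, the gene of the iron-binding lipocalin-2 (0.29). Nearest to Icam1 were Ier3 (0.21), Fgl2 (0.22) and Tph1 (0.22), and nearest to Vcam1 were Pgr (0.20), Plac1 (0.21) and AW551984 (0.23). Pgr, Plac1 and AW551984 were dim, averaging 52.0, 35.2 and 75.6 in vehicle skin. The 40th percentile of the vehicle arrays lay between 46.2 and 57.5. The pseudocount understates changes at such signals, so these small distances say little. Within the set, Selp and Icam1 were closer to each other (0.16) than to any gene outside it, while Sele lay 0.61 from Selp and 0.64 from Icam1. These distances describe 9 arrays that share groups and carry no test.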

How the data were processed

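Total RNA of mouse ear skin, 6 h after treatment, was hybridised as biotin-labelled cRNA, 1 array per sample, and samples were grouped by their titles. The deposited values are linear MAS5 signal intensities that the authors made with Affymetrix Expression Console, per the submitters' processing notes, for which the labels used here state no version or setting. The mean after leaving out the top and bottom 2% of probe sets was the same on every array.

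Probe sets were named through GEO's platform annotation. Of 45101 probe sets, 64 controls were left out, 34945 had 1 gene symbol, 932 had several and 9160 were unnamed here. The highest mean log2 probe set represented a gene, and genes above the array's 40th percentile in at least 3 arrays were tested. limma 3.58.1 (R 4.3.3) fitted log2(signal + 16) with a mean per group over all 9 arrays, an intensity trend and Benjamini-Hochberg adjustment at 0.05. A log2 change with this pseudocount of 16 understates the change of dim genes. The fit was tested on simulated data.

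The members and all lists were chosen with earlier results of these data known. All members were named, with 2 genes per list and comparison with vehicle, those with the largest absolute log2 change among genes that passed (the smallest p where none did), and the 3 nearest profiles to Sele, Selp, Icam1 and Vcam1. Values of such a gene in the other comparisons are given where they bear on a member. Alternatives covered the pseudocount, filter, normalization, variance trend, choice of probe set, replicate block, groups in the fit and each array left out. The number of arrays limits the precision. Promoters, genes and coordinates are RefSeq's (GRCm38.p6).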

Additional observations from a re-analysis of the deposited data

How the results depend on the processing

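Under the 12 other settings and the 9 left-out arrays, the calls of Sele, Selp and Icam1 after BAC and for DNFB against BAC kept direction and threshold. The number of members called after DNFB, 4 in the main analysis, was 2 with array median centring, 2 with the endothelial marker mean subtracted, and between 2 and 5 with 1 array left out. After BAC it was 5, and 3 when the probe sets of each gene were averaged. Over all tested genes the endothelial subtraction gave 3066 calls after DNFB, 3725 after BAC and 609 for DNFB against BAC, against 1955, 2009 and 961 in the main analysis. Calls over all tested genes also fell to 1417 after DNFB with array median centring, and to 1494 after BAC with probe sets averaged. Without the intensity trend there were 1202 after DNFB and 402 for DNFB against BAC. Leaving out 1 array gave 1246 to 1927 calls after DNFB, 1228 to 2154 after BAC and 512 to 1002 for DNFB against BAC. The lowest counts came without vehicle replicate 3 and vehicle replicate 1 after DNFB (1246 and 1277), without vehicle replicate 1 after BAC (1228), and without BAC replicate 2, DNFB replicate 3 and DNFB replicate 2 between the compounds (512, 573 and 608). Changes with no call that turned sign were Sele after DNFB (0.0021 with quantile normalization, -0.35 to 0.17 with 1 array left out), Vcam1 after DNFB (-0.15, probe sets averaged) and Vwf after BAC (-0.056, endothelial subtraction). For DNFB against BAC they were Cdh5 (-0.027, probe sets averaged), Pecam1 (0.034 with median centring, -0.13 to 0.089 with 1 array left out) and Esam (-0.11 to 0.16 with 1 array left out). The causes were not tested. The share of calls that were higher was 48.8% after DNFB, 46.3% after BAC and 46.2% for DNFB against BAC. It was 43.8%, 34.0% and 51.0% with median centring, which moved the median of all genes after BAC to -0.12 and for DNFB against BAC to 0.10, and 10.7%, 13.0% and 34.6% with the endothelial subtraction. Same-numbered arrays of different groups correlated between -0.12 and 0.15 in their deviations (1 of 9 pairs over 0.1) and 2 of 9 arrays correlated best with their own number, so the numbers were not taken to pair arrays. With replicate number as a replicate block 3 members were called after DNFB, 5 after BAC and 4 for DNFB against BAC, out of 1874, 1939 and 860 genes. Icam2 after DNFB was then at an adjusted p of 0.0581 (0.0269 to 0.164 over its alternatives). Changes of the other named genes kept direction and side of the threshold in 533 cases with 1 array left out (69 lost a call, 1 gained one) and in 723 cases under the other settings (79 lost a call), with no change of sign. MAS5 signals carry no measure of background here, so for dim probe sets (Icam2, the lesser probe sets of Selp, Vcam1 and Cdh5, and Itgam, Ppbp, Cd3e, Il1a and Myh11) a low signal cannot be told from none.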
